A study of Mus musculus with 4 samples.

Results

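The genes for the proteins of the cytosolic ribosome were followed in a mouse hepatocyte cell line grown flat or as spheroids. They were taken as the protein-coding genes of the deposited table with a symbol of the Rps, Rpl or Rplp series and a number, with Rps27l left out, a rule that uses no measured value. It found 79 of the 31828 genes in the table. Of these, 30 encode proteins of the small subunit and 49 encode proteins of the large subunit or their paralogues (Rpl3l, Rpl7l1 and Rpl22l1).

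A ribosome holds a small subunit, which reads the mRNA, and a large subunit, which joins amino acids. Each protein is present once in a ribosome, apart from the stalk proteins Rplp1 and Rplp2, so that cells make the proteins in matched amounts, and liver cells, which secrete much of the protein of blood plasma, hold many ribosomes. Most of these mRNAs begin with a C followed by a run of pyrimidines, the terminal oligopyrimidine tract, through which mTORC1 and the RNA-binding protein Larp1 are known to control their translation and stability together.

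The study compared AML12 cells in 2D culture, where they formed a single layer, with the same cells embedded in Matrigel in 3D culture, where they formed spheroids. AML12 (alpha mouse liver 12) is an immortalised hepatocyte line made from mice with a transgene for human TGFA, so it stands for 1 line and not for the liver. All cells received 1 mM hydroxyurea, which blocks DNA replication, for 24 h in 2D and 36 h in 3D, and so culture and length of treatment cannot be told apart in any result. RNA-seq was done on 2 libraries per culture, and nothing in the labels says that the 2 came from separate cultures, so p-values measure only the spread between these libraries.

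The values were TPM, length-scaled transcript abundances that add up to a fixed total per library, which compare genes per unit of length within a library and do not keep the sequencing depth, so no counting interval could be given. In all, 14116 genes with a mean of at least 1 TPM were tested, and limma called 7122 of them (50.5%) at a Benjamini-Hochberg adjusted p under 0.05. Of the hepatocyte markers, Alb was listed at only 0.819 and 1.20 TPM in 2D and at 12.7 and 10.0 TPM in 3D, whereas Krt18 was at 6286 and 6128 TPM in 2D and 3275 and 3320 TPM in 3D. Of the 6 hepatocyte markers, 4 rose in 3D and 2, the keratins Krt8 and Krt18, fell. The 4 fibroblast markers in the table summed to 0.376 to 0.797 TPM, the 3 endothelial markers to 0.555 to 1.19 TPM, and the 4 leukocyte markers to 20.1 to 26.3 TPM, most of it Cd68, with Ptprc near 0. Transcripts of the mitochondrial genome made up 5.37 to 5.44% of TPM in 2D and 6.51 to 6.78% in 3D.

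Ribosomal protein transcripts formed a slightly smaller part of the transcriptome in 3D than in 2D. The 79 genes together took 9.16 and 8.71% of TPM in 2D and 8.14 and 8.30% in 3D. Both 3D libraries lay below both 2D libraries, with a mean sum of 89334 TPM (SD 3214, n = 2) in 2D against 82205 TPM (SD 1146, n = 2) in 3D, a log2 ratio of -0.12. With 2 libraries against 2, an exact two-sided permutation test cannot give a p below 0.333. In RNA from whole cultures, fewer cells of a type and less RNA per cell cannot be told apart, and TPM gives a share of the library and not an amount per cell.

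Of the 79 genes, 78 were tested, and 35 (44.9%) fell in 3D, 7 (8.97%) rose and 36 were not called (limma, Benjamini-Hochberg adjusted p under 0.05). Over all tested genes, 27.1% fell and 23.4% rose. Among the other 1910 genes with a mean of at least 100 TPM, which are nearer in level to the ribosomal protein genes, 37.7% fell and 26.5% rose, 64.2% in all. The shifts were small, with a median log2 fold change of -0.14 beside -0.04 over all tested genes and -0.07 over the other genes of at least 100 TPM. Of the 78, 49 lay within 0.2 of 0 on the log2 scale and 5 lay beyond 0.5, a distance that 29.6% of all tested genes passed.

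The 2 subunits had the same median. Among small subunit genes, 14 of 30 fell and 4 rose, with a median log2 fold change of -0.14. Among large subunit genes, 21 of 48 fell and 3 rose, and their median was also -0.14. Both 2D libraries were above both 3D libraries for 50 of the 78 genes and both 3D libraries were above both 2D libraries for 13, against 41.6% and 35.9% of all tested genes, and in 15 genes the cultures overlapped.

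**Figure D1:**
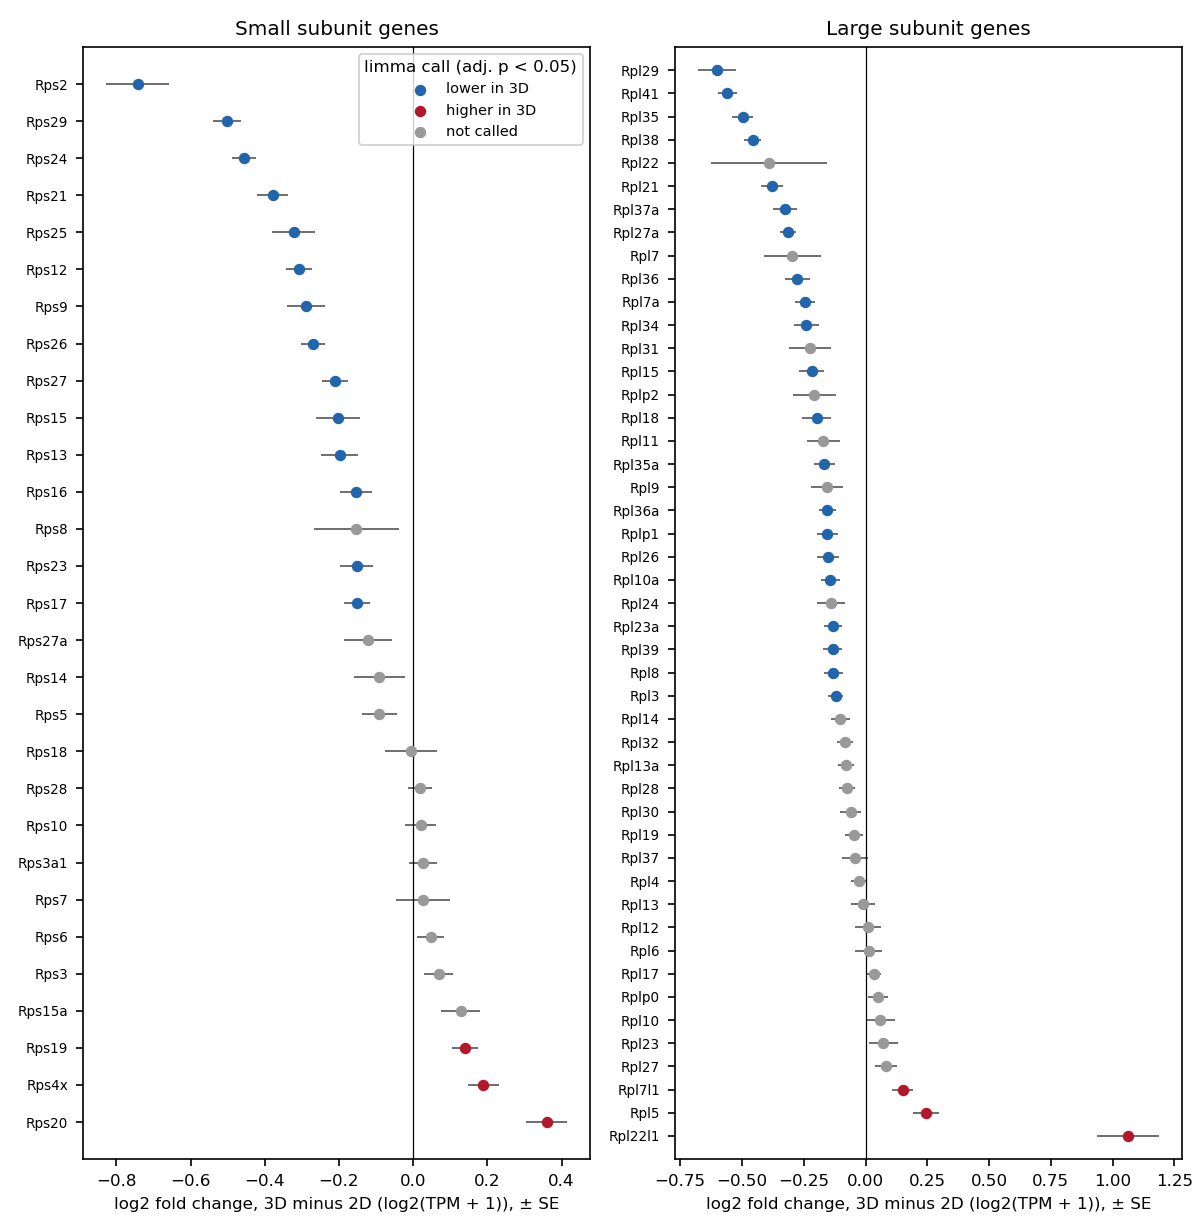
The log2 fold change of log2(TPM + 1), 3D minus 2D, of tested ribosomal protein genes is plotted with its standard error, the small subunit on the left and the large subunit on the right, coloured by the limma call. Most genes shown sit a little left of 0, and Rpl22l1 stands alone at 1.06.

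The 2D libraries differed between themselves in the same genes. In 2D replicate 1, 68 of the 78 genes were higher than in 2D replicate 2, with a median log2 difference of 0.07 where the median of all tested genes was -0.03. In 3D replicate 1, 24 of the 78 were higher than in 3D replicate 2, with a median of -0.02. The median log2 fold change of the ribosomal protein genes was -0.09 without 2D replicate 1 and -0.17 without 2D replicate 2. It was -0.12 without 3D replicate 1 and -0.14 without 3D replicate 2. The split of calls moved with the scaling. After cyclic loess normalization 19 fell (24.4%, beside 24.8% of all tested genes) and 14 rose (17.9%, beside 25.9%). After centring each library on its median 20 fell (25.6%, beside 26.2%) and 5 rose (6.41%, beside 24.4%). In both, the share that fell was near that of all genes, and the share that rose was below that of all genes. The median log2 fold change after centring was -0.12, beside -0.02 over all tested genes. Without the mitochondrial transcripts and the 20 genes with the highest TPM in the total, 24 fell (30.8%, beside 25.2%) and 7 rose (8.97%, beside 24.8%). The fall of 12 genes (Rps2, Rps12, Rps21, Rps24, Rps26, Rps29, Rpl21, Rpl27a, Rpl29, Rpl35, Rpl38 and Rpl41) and the rise of Rps20 and Rpl22l1 were called in all 17 alternatives. Of the 13 alternatives with 4 libraries, the falls of Rps15 and Rpl23a were called in 5 and those of Rplp1 and Rpl3 in 6.

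Among small subunit genes, the largest falls were in Rps2, Rps29 and Rps24. Rps29, a small zinc-binding protein of the subunit's head, was listed at 1598 and 1522 TPM in 2D and 1111 and 1092 TPM in 3D. The cultures were well apart, with a log2 difference of -0.50 ± 0.04 (SE, limma adjusted p = 0.00102). Rps24, one of the genes mutated in Diamond-Blackfan anaemia, was at 782 and 767 TPM in 2D and 560 and 568 TPM in 3D. These values did not overlap either (-0.46 ± 0.03, limma adjusted p = 0.000897). Rps2 itself was listed at only 143 and 149 TPM in 2D and 93.6 and 80.1 TPM in 3D, a log2 difference of -0.74 ± 0.09 (limma adjusted p = 0.00296). Most of the signal of Rps2-like sequence was placed on the row of a copy.

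Among the small subunit genes that rose were Rps20, Rps4x and Rps19. Rps20, a protein of the subunit's head, was at 216 and 197 TPM in 2D and 262 and 269 TPM in 3D. Both 3D libraries were above both 2D libraries, with a log2 difference of 0.36 ± 0.06 (limma adjusted p = 0.00669). Rps4x, the X-linked form of Rps4, went from 894 and 859 TPM to 975 and 1024 TPM (0.19 ± 0.04, limma adjusted p = 0.0209). Rps19, the gene most often mutated in Diamond-Blackfan anaemia, went from 1349 and 1294 TPM to 1447 and 1462 TPM (0.14 ± 0.04, limma adjusted p = 0.0294). The gaps of Rps4x and Rps19 were thus small beside their levels, and neither call held in every alternative.

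The 3 small subunit genes with the highest mean TPM did not move alike. Rps12 was at 1988 and 2051 TPM in 2D and 1602 and 1660 TPM in 3D, and fell by 0.31 on the log2 scale (SE 0.04, limma adjusted p = 0.00313). Rps15 was at 2164 and 1938 TPM in 2D and 1783 and 1780 TPM in 3D (-0.20 ± 0.06, limma adjusted p = 0.0446). In Rps14, whose loss is known from a form of myelodysplastic syndrome, the cultures overlapped, with 2277 and 2008 TPM in 2D and 1962 and 2053 TPM in 3D (-0.09 ± 0.07, limma adjusted p = 0.322).

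Among large subunit genes, the lowest fold changes were those of Rpl29, Rpl41 and Rpl35. Rpl41, whose coding sequence of 75 nt is the shortest of the 79, was listed at 2171 and 2068 TPM in 2D and 1456 and 1420 TPM in 3D. Both 3D values were lower, by a log2 difference of -0.56 ± 0.04 (limma adjusted p = 0.000807). Rpl35, which sits near the exit of the peptide tunnel, was at 1131 and 1063 TPM in 2D and 781 and 772 TPM in 3D. The cultures did not overlap (-0.50 ± 0.04, limma adjusted p = 0.00136). Rpl29 was among the lowest of the group in level, at 71.3 and 63.0 TPM in 2D and 45.1 and 42.7 TPM in 3D (-0.60 ± 0.08, limma adjusted p = 0.00416). Rpl38, a protein known for its part in translating Hox mRNAs and named after its value was seen, was at 1595 and 1533 TPM in 2D and 1148 and 1129 TPM in 3D (-0.46 ± 0.04, limma adjusted p = 0.00107).

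Rpl5 was the only standard large subunit gene that rose on its own row. With Rpl11 and the smallest ribosomal RNA it forms a particle that enters the large subunit and, when free, binds Mdm2. It was at 637 and 589 TPM in 2D and 710 and 743 TPM in 3D, with both 3D libraries above both 2D libraries (0.25 ± 0.05, limma adjusted p = 0.0182). Its partner Rpl11, named after its value was seen, was at 611 and 550 TPM in 2D and 533 and 497 TPM in 3D and was not called (-0.17 ± 0.07, limma adjusted p = 0.0926). The 2 fold changes had opposite signs, and their difference was not tested. The call of Rpl5 held in 12 of the 13 alternatives with 4 libraries, and not in all of those with a library left out.

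The stalk of the large subunit, which Rplp0, Rplp1 and Rplp2 build and to which the elongation factors bind, held the genes with the highest TPM of the group. Rplp1 was at 3952 and 3743 TPM in 2D and 3394 and 3518 TPM in 3D, and the small fall was called (-0.15 ± 0.04, limma adjusted p = 0.0335). Rplp0, a common reference gene in quantitative PCR, overlapped between the cultures at 3771 and 3583 TPM in 2D and 3726 and 3882 TPM in 3D (0.05 ± 0.04, limma adjusted p = 0.365). Rplp0 was not called in 12 of the 13 alternatives with 4 libraries, and was called higher after cyclic loess normalization (0.13 ± 0.03, limma adjusted p = 0.0145). Rplp2 was at 740 and 658 TPM in 2D and 568 and 643 TPM in 3D and was not called (-0.21 ± 0.09, limma adjusted p = 0.108). The other large subunit gene among the 3 highest, Rpl23a, which meets the signal recognition particle at the tunnel exit, was at 3720 and 3535 TPM in 2D and 3311 and 3302 TPM in 3D (-0.13 ± 0.04, limma adjusted p = 0.0359).

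The largest change of the whole group was in a paralogue. Rpl22l1, the paralogue of Rpl22, was listed at 111 and 88.5 TPM in 2D and 196 and 221 TPM in 3D. Both 3D libraries were far above both 2D libraries, with a log2 difference of 1.06 ± 0.13 (limma adjusted p = 0.00318). Rpl22 was at 222 and 140 TPM in 2D and 124 and 145 TPM in 3D. Its cultures overlapped, because 2D replicate 2 was as low as the 3D libraries, and it was not called (-0.39 ± 0.23, limma adjusted p = 0.224). Of the TPM of the pair, Rpl22l1 took 33.2 and 38.7% in 2D and 61.2 and 60.3% in 3D, so that the more abundant transcript of the pair was Rpl22 in both 2D libraries and Rpl22l1 in both 3D libraries. Rpl22 protein is known to bind the Rpl22l1 transcript and lower its level, and protein was not measured here.

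Rpl7l1, a nucleolar paralogue of Rpl7 found in precursors of the large subunit, was at 86.4 and 87.9 TPM in 2D and 97.4 and 96.4 TPM in 3D. The replicates were close, and the rise of 0.15 ± 0.04 on the log2 scale was called (limma adjusted p = 0.0372), in 10 of the 13 alternatives with 4 libraries and in none of those with a library left out. Rpl7 was at 1426 and 1133 TPM in 2D and 1060 and 1011 TPM in 3D and was not called (-0.30 ± 0.12, limma adjusted p = 0.0917). Rpl7l1 took 5.71 and 7.20% of the TPM of this pair in 2D and 8.41 and 8.70% in 3D. Rpl3l, the paralogue of Rpl3 of heart and skeletal muscle, was at 0.0826 to 0.215 TPM in the 4 libraries and was not tested, while Rpl3, which lies near the peptidyl transferase centre, was at 694 and 684 TPM in 2D and 632 and 635 TPM in 3D (-0.12 ± 0.03, limma adjusted p = 0.0322).

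**Figure D2:**
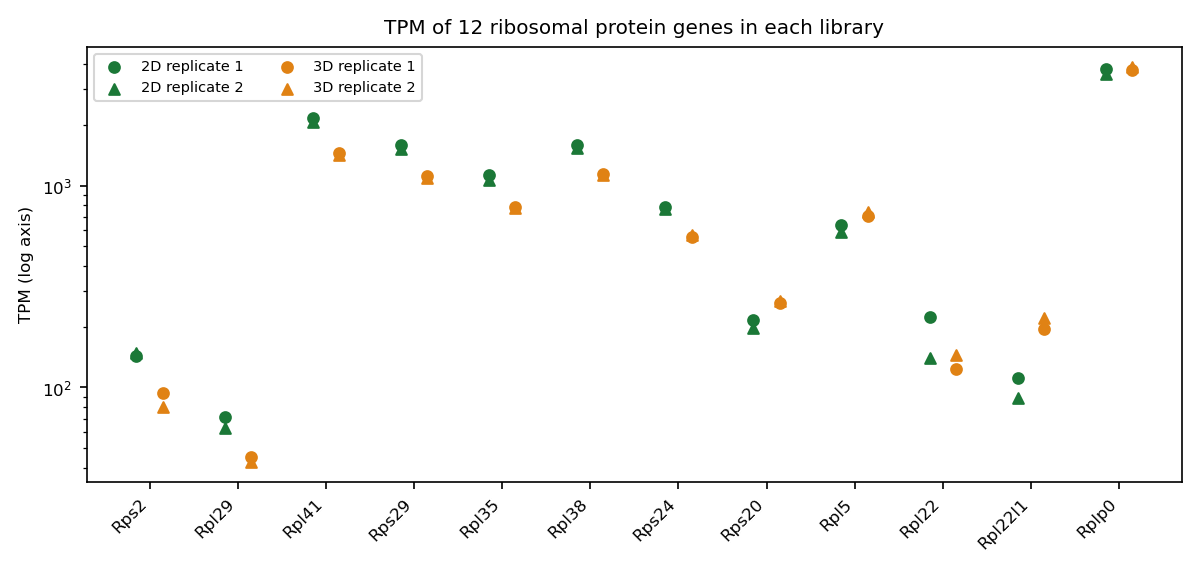
The TPM of 12 ribosomal protein genes is plotted on a log axis, with 1 point per library (2D in green, 3D in orange, circles for replicate 1 and triangles for replicate 2). Rpl22l1 runs from 88.5 to 221 TPM with all 3D points above the 2D points, Rpl22 overlaps, and Rplp0 stays between 3583 and 3882 TPM.

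The start of the transcript was read for 59 of the 79 genes that had a window in RefSeq (GRCm38.p6). A tract was counted where a C followed by at least 4 pyrimidines began within 5 bases of the annotated start, on the strand of the gene only. It was found in 28 of the 59 genes (47.5%) and in 21.2% of all genes with a window. The 50 bases around the start, 30 before it and 20 from it, are shown 5′ to 3′ for 3 genes that fell, for Rps18, and for genes that rose or belong to the Rpl22 pair, with the tract in capitals. The genes shown were picked by hand, and none of the 10 that fell without a tract is among them.
Rpl35 (chr2:39005112-39005161, minus strand): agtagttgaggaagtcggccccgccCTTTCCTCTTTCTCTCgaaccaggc
Rps21 (chr2:180257349-180257398, plus strand): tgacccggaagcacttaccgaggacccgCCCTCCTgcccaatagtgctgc
Rpl38 (chr11:114668550-114668599, plus strand): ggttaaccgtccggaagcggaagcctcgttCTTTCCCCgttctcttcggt
Rps18 (chr17:33955646-33955695, minus strand): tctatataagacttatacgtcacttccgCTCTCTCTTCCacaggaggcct
Rpl22l1 (chr3:28805478-28805527, plus strand): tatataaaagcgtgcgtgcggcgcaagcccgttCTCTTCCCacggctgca
Rpl22 (chr4:152325696-152325745, plus strand): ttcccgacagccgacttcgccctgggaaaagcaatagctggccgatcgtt
Rpl5 (chr5:107900498-107900547, plus strand): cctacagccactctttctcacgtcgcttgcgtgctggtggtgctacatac
Rpl7l1 (chr17:46782637-46782686, minus strand): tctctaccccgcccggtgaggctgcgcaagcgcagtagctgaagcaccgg

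Rpl35 and Rpl38, which fell, hold long tracts, but so does Rpl22l1, which rose, and Rps18, whose own row overlapped between the cultures. With its copies added, described below, Rps18 was called higher. In Rpl22, Rpl5 and Rpl7l1 no run of this form begins within 5 bases of the annotated start, which says nothing of runs elsewhere in the window, such as the one upstream in Rpl5. Of the 28 tested genes with a tract, 16 fell and 1 rose, with a median log2 fold change of -0.20. Of the 30 tested genes with a window and no tract by this rule, 10 fell and 4 rose, with a median of -0.04. The rule rests on annotated starts, so a gene of this set can still have a tract at the start used in these cells. Over all tested genes, 27.1% fell and 23.4% rose, and fold changes of other genes with a tract were not compared. The median coding length was 420 nt with a tract and 462 nt without, and the difference between these sets was not tested.

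The genes with short coding sequences had the lower fold changes. Of the 9 tested ribosomal protein genes with a coding sequence under 300 nt, 7 fell, with a median log2 fold change of -0.33. Of the 28 from 300 to under 450 nt, 16 fell (57.1%) and 3 rose, with a median of -0.15. Of the 19 from 450 to under 600 nt, 6 fell (31.6%) and 1 rose, with a median of -0.12, and of the 19 from 600 to under 900 nt, 5 fell (26.3%) and 3 rose, with a median of -0.08. The other protein-coding genes showed a gradient in the same direction. Their median was -0.21 under 300 nt (257 genes, 40.9% of which fell), -0.16 from 300 to under 450 nt, -0.11 from 450 to under 600 nt, -0.01 from 600 to under 900 nt and 0.01 at 900 nt and over. The share of them that fell was 38.9% from 300 to under 450 nt, 34.3% from 450 to under 600 nt and 27.5% from 600 to under 900 nt. The ribosomal protein genes were above this share in the 2 shortest classes and a little below it from 450 to under 900 nt. Of the other protein-coding genes of at least 100 TPM, the 2 shortest classes had 48.8% and 44.2% that fell. The next 2 classes had 42.7% and 35.7%, above the ribosomal protein genes in both. Over the 78 ribosomal protein genes, which share the same 4 libraries, Spearman's rho of the fold change with coding length was 0.35, and that of the difference between replicates with coding length was 0.01 in 2D and 0.03 in 3D. After the fold changes of all genes were corrected for transcript GC and length, an alternative chosen after seeing the data, the median of the ribosomal protein genes was -0.02, equal to that of all genes (-0.02), and 16 fell (20.5%, beside 26.5% of all genes) and 12 rose (15.4%, beside 24.7%).

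**Figure D3:**
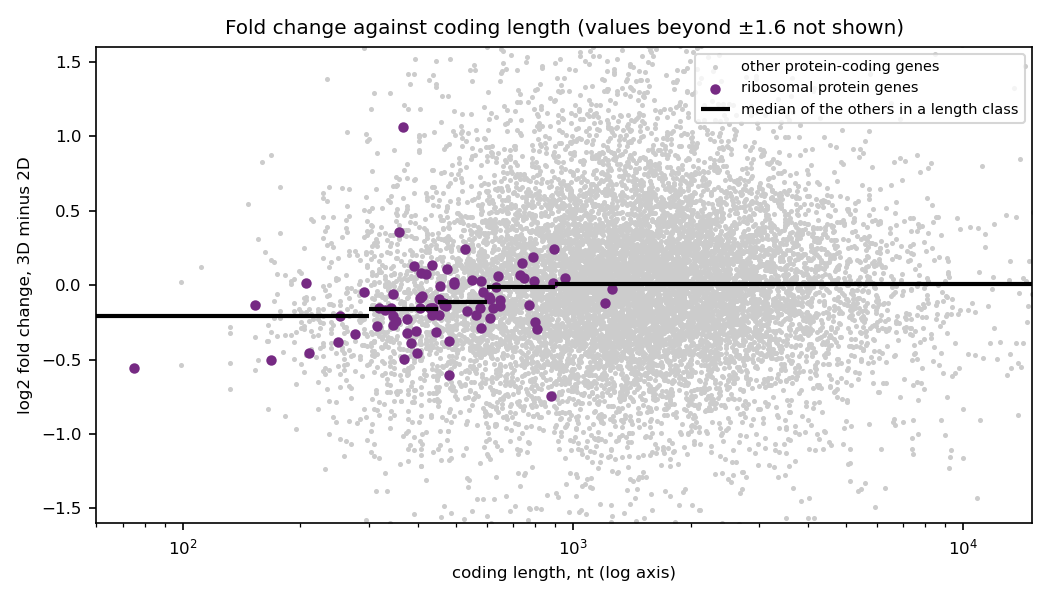
The log2 fold change, 3D minus 2D, is plotted against coding length in nt on a log axis for ribosomal protein genes (purple) and other tested protein-coding genes (grey), with black lines for the median of the other genes in each length class. The black line steps from -0.21 under 300 nt to 0.01 at 900 nt and over, and most purple points lie between 300 and 900 nt.

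Many ribosomal protein genes have processed copies in the genome, and the table holds rows of its own for these. Rows annotated as pseudogenes or named as gene models or copies were compared with the transcripts of the 79 genes, and 704 rows matched 1 of 76 genes at no less than 90% identity over at least 80% of their length. Reads from identical stretches cannot be told apart, and how they were divided between such rows is not given in the sources used here. In 7 genes (Rpl26, Rps2, Rpl34, Rps18, Rpl29, Rpl30 and Rpl15, named after their values were seen except Rps2 and Rpl29) the copies took over 50% of the summed TPM.

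The sequences of 3 of these genes and of the copy with the highest TPM are shown over 60 bases of the coding sequence, counted from 1 at the A of the start codon, with the bases that differ in capitals. Rps2 (chr17:24718116-24721929) and Rps2-ps13 (chrX:52898588-52899469) differ at 7 of 879 coding bases, and bases 25 to 84 are shown. Rpl34 (chr3:130726831-130730398) and Rpl34-ps1 (chr6:71124610-71124963) differ at 2 of 351, shown over bases 73 to 132. Rpl26 (chr11:68901583-68906989) and Gm15772 (chr5:3236431-3236868) differ at 2 of 435, shown over bases 118 to 177. Positions are on GRCm38, and the transcripts are those of GENCODE M21.
Rps2: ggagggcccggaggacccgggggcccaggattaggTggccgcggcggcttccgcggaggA
Rps2-ps13: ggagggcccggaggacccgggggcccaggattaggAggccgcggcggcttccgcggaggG
Rpl34: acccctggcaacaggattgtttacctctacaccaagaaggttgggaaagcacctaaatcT
Rpl34-ps1: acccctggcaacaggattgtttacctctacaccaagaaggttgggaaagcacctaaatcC
Rpl26: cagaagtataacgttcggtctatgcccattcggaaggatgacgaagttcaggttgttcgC
Gm15772: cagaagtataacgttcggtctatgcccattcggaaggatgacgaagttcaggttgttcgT

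Rps2-ps13 was listed at 2393 and 2272 TPM in 2D and 1458 and 1575 TPM in 3D, far above Rps2 itself. Both rows were lower in both 3D libraries, and with all copies added Rps2 was at 2601 and 2479 TPM in 2D and 1592 and 1700 TPM in 3D, with a log2 difference of -0.63 ± 0.05 (limma adjusted p = 0.00101). Rps2 was thus called lower with and without its copies.

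For Rpl26, a protein of the tunnel exit, the copies changed the call. The gene itself was at 133 and 129 TPM in 2D and 116 and 120 TPM in 3D, and fell by 0.15 on the log2 scale (SE 0.04, limma adjusted p = 0.0439). Gm15772 was at 3363 and 3156 TPM in 2D and 3401 and 3509 TPM in 3D, with both 3D libraries a little higher, and the sum was not called (0.08 ± 0.04, limma adjusted p = 0.198). Rpl34 was called lower alone (-0.24 ± 0.05, limma adjusted p = 0.0170) and was at 1328 and 1297 TPM in 2D and 1300 and 1313 TPM in 3D with its copies, which overlap (-0.01 ± 0.03, limma adjusted p = 0.889).

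In Rps18 and Rpl30 the sum rose where the gene itself was not called. Rps18 with its copies, mainly Gm10260 and Gm11361, was at 1365 and 1242 TPM in 2D and 1449 and 1515 TPM in 3D (0.19 ± 0.06, limma adjusted p = 0.0495). Rpl30 with its copies, mainly Gm12191, was at 1225 and 1172 TPM in 2D and 1356 and 1370 TPM in 3D (0.19 ± 0.04, limma adjusted p = 0.0136). Rpl29 stayed lower with its copies at a smaller fold change (-0.20 ± 0.05, limma adjusted p = 0.0263). With the copies added to the ribosomal protein genes, an alternative chosen after seeing the data, 31 of them fell (39.7%) and 9 rose (11.5%). Of the 13911 genes then tested, with the copies' own rows left out, 27.3% fell and 23.8% rose (51.1% in all). Of the 78 ribosomal protein genes, 72 kept their call. The share of TPM was then 10.4 and 9.88% in 2D and 9.29 and 9.50% in 3D.

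**Figure D4:**
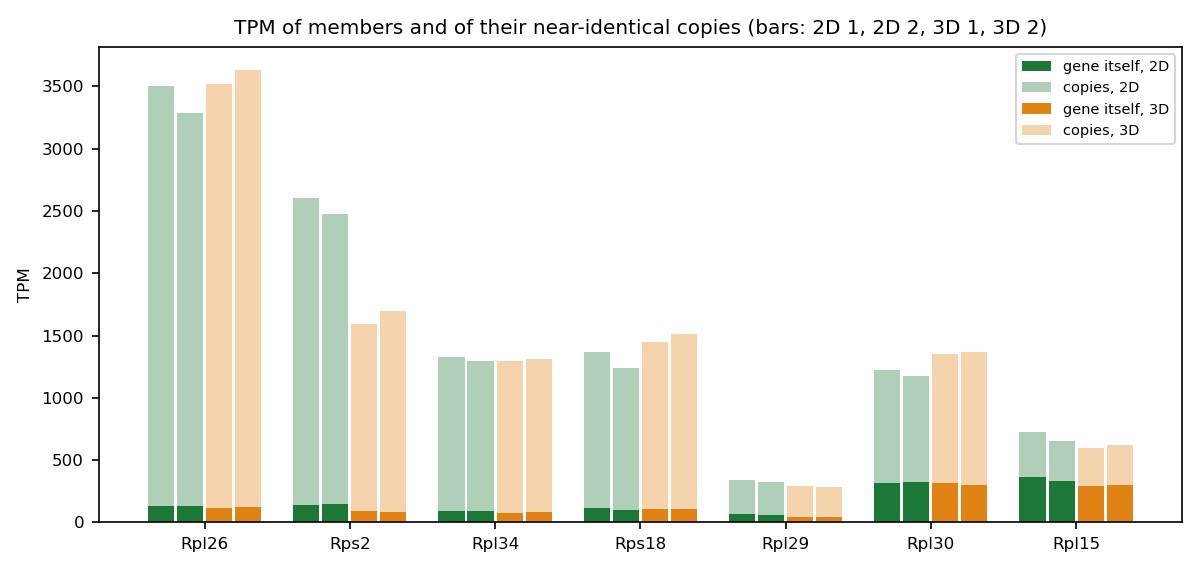
Bars from 0 show the TPM of 7 genes (solid) with their near-identical copies stacked on them (pale), in the order 2D replicates 1 and 2 (green) and 3D replicates 1 and 2 (orange). In Rpl15 copies and gene are about equal, in the other genes the copies make up most of the bar, and the summed bar of Rps2 drops from 2601 and 2479 TPM to 1592 and 1700 TPM while that of Rpl26 does not.

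Some ribosomal proteins have symbols outside the rule. Of 6 such genes, 3 fell (50%) and 1 rose (16.7%), beside 27.1% and 23.4% of all tested genes. Rpsa, a small subunit protein also known as the laminin receptor, fell from 2998 and 2924 TPM to 1976 and 2070 TPM, with no overlap (-0.55 ± 0.04, limma adjusted p = 0.000782). Fau, a fusion of a ubiquitin-like protein with a small subunit protein, was at 2104 and 2044 TPM in 2D and 2062 and 2076 TPM in 3D, and these values overlapped (log2 difference -0.0032, limma adjusted p = 0.941). The gene that rose was Rack1, a signalling scaffold on the small subunit, named after its value was seen, at 944 and 900 TPM in 2D and 1136 and 1200 TPM in 3D (0.34 ± 0.05, limma adjusted p = 0.00441).

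The ribosomal proteins of mitochondria, which build a separate ribosome, had a similar split. Of 78 such genes, 35 fell (44.9%) and 8 rose (10.3%), beside 27.1% and 23.4% of all tested genes. Their median log2 fold change was -0.18. Mrpl33 was at 394 and 369 TPM in 2D and 188 and 202 TPM in 3D, with no overlap (-0.96 ± 0.06, limma adjusted p = 0.000628). Mrpl54 was at 280 and 249 TPM in 2D and 198 and 208 TPM in 3D (-0.38 ± 0.07, limma adjusted p = 0.0108), while Mrpl38 was not called (-0.09 ± 0.04, limma adjusted p = 0.111).

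Of 47 genes for making ribosomes in the nucleolus, 17 fell (36.2%) and 5 rose (10.6%), beside 27.1% and 23.4% of all tested genes. Their median was -0.13. Eif6, which keeps free large subunits from joining, went from 357 and 349 TPM to 293 and 296 TPM (-0.26 ± 0.04, limma adjusted p = 0.00471). Bop1, a factor of large subunit rRNA processing, went from 219 and 226 TPM to 171 and 170 TPM (-0.38 ± 0.04, limma adjusted p = 0.00217), and Nop56, a core protein of the particles that methylate rRNA, was not called (-0.26 ± 0.12, limma adjusted p = 0.136). For RNA polymerase I, the direction differed between genes named after their values were seen. Its subunit Polr1e fell from 24.7 and 25.1 TPM to 11.7 and 11.5 TPM (-1.04 ± 0.06, limma adjusted p = 0.000652). Ubtf, which activates the rRNA promoter, rose from 64.6 and 62.6 TPM to 112 and 117 TPM (0.84 ± 0.05, limma adjusted p = 0.000543). These were the lowest and the highest fold change of the 47 genes. Polr1a was called lower (-0.41 ± 0.09, limma adjusted p = 0.0171) and Polr1c higher (0.33 ± 0.08, limma adjusted p = 0.0230). Polr1b (-0.20) and Rrn3 (-0.14) were not called.

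Of 18 translation factors and other genes known for a terminal oligopyrimidine tract, 5 fell (27.8%) and 4 rose (22.2%), near the shares of all tested genes (27.1% and 23.4%), with a median of -0.03. Their summed TPM was 21379 and 20907 in 2D and 23935 and 24188 in 3D. Without Tpt1 and Eef2 it was 15570 and 15167 in 2D and 14936 and 15033 in 3D. Both genes left out rose, and no gene that fell was left out, so the second sum leans to lower 3D values. Eef2, the factor that moves the ribosome along the mRNA, rose from 2226 and 2276 TPM to 3302 and 3248 TPM, with no overlap (0.54 ± 0.03, limma adjusted p = 0.000543). Tpt1, a translationally controlled protein, rose from 3582 and 3464 TPM to 5697 and 5908 TPM (0.72 ± 0.04, limma adjusted p = 0.000447). Eef1a1, which brings the aminoacyl-tRNA, overlapped at 6933 and 6521 TPM in 2D and 6845 and 6844 TPM in 3D (0.03 ± 0.04, limma adjusted p = 0.609).

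Of 14 tested genes of the MYC and mTORC1 control of ribosome production, 3 fell (21.4%) and 2 rose (14.3%), with a median of 0.02. Over all tested genes, these shares were 27.1% and 23.4%. Eif4ebp1, an inhibitor of cap-dependent translation that mTORC1 switches off, fell from 245 and 242 TPM to 146 and 149 TPM (-0.72 ± 0.04, limma adjusted p = 0.000465). Rheb, the activator of mTORC1, fell from 164 and 154 TPM to 131 and 129 TPM (-0.29 ± 0.05, limma adjusted p = 0.00797), and Mdm2 was not called (0.07 ± 0.04, limma adjusted p = 0.203). The other 3 called genes, named after their values were seen, were Myc, which fell (-0.32 ± 0.06, limma adjusted p = 0.0139), and Larp1 (0.39 ± 0.05, limma adjusted p = 0.00410) and Tsc1, an inhibitor of mTORC1 (0.63 ± 0.08, limma adjusted p = 0.00326), which rose.

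Of 8 genes that host snoRNAs in their introns, 3 rose (37.5%) and 2 fell (25%), beside 23.4% and 27.1% of all tested genes. Snhg1 fell from 662 and 611 TPM to 361 and 402 TPM (-0.74 ± 0.07, limma adjusted p = 0.00189). Zfas1 rose from 168 and 158 TPM to 207 and 205 TPM (0.34 ± 0.05, limma adjusted p = 0.00474), and Gas5 overlapped between the cultures (0.04 ± 0.05, limma adjusted p = 0.483).

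**Figure D5:**
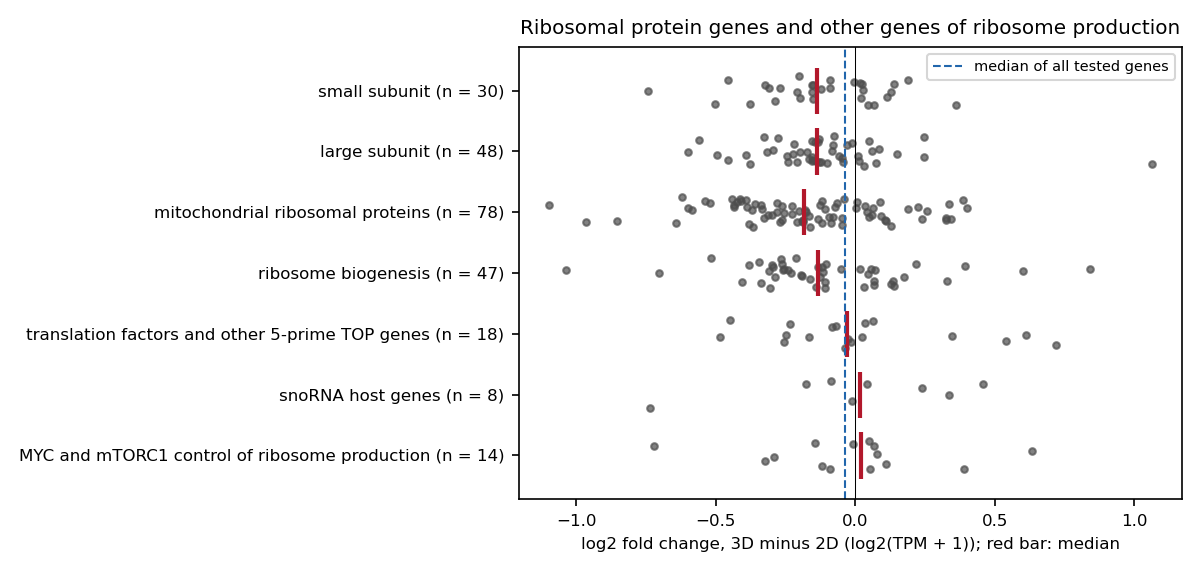
Each point is the log2 fold change, 3D minus 2D, of a tested gene of a list, with red bars at the list medians and a dashed line at the median of all tested genes (-0.04). The medians of both subunits (-0.14), mitochondrial ribosomal proteins (-0.18) and ribosome biogenesis genes (-0.13) lie left of the dashed line, and those of the other 3 lists between -0.03 and 0.02.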

How the data were processed

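RNA-seq libraries of AML12 cells were made from total RNA with a stranded mRNA kit (2 per culture). Per the labels, the submitters' processing notes name cutadapt 1.8.3, Trimmomatic 0.36, HISAT2 2.0.5 and StringTie 1.3.4, with GRCm38 (mm10) as the build, and the deposited table holds TPM per gene and library. Per the study's methods, alignment used the strand of a reverse-stranded kit, and quantification used Ensembl gene models. Columns with the authors' own fold changes and p-values of the 3D against 2D comparison were not used.

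Groups were taken from the labels. For genes with a mean of at least 1 TPM, limma 3.58.1 (R 4.3.3) was run on log2(TPM + 1) with trended, robust variance and a two-sided test, culture was the only factor, and p-values were adjusted by Benjamini-Hochberg over all 14116 genes, with a threshold of 0.05. Fold changes are on this scale, which understates the change of low genes, and TPM sums to a fixed total, so a rise of abundant transcripts lowers the rest. Sequencing depth is not known from TPM. The test was checked on simulated data. Copies were found with BLAST 2.17.0 against GENCODE M21, promoters came from RefSeq (GRCm38.p6), and 74 of the 79 genes had the same position in GENCODE M21. Alternatives were other pseudocounts, filters, scalings and variance priors, a replicate block, each library left out, summed copies, and a GC and length correction.

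The members and lists were chosen with earlier results of these data known. Genes named were the stalk genes, the paralogue pairs, the 3 highest mean TPM and the 3 highest and 3 lowest fold changes of each subunit, and the 3 highest mean TPM of each other list. Others were named after their values were seen. A few genes that meet this rule are not reported here by name or drawn in the plot of fold changes by gene, and all counts and medians include them.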

Additional observations from a re-analysis of the deposited data

How the results depend on the processing

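The median log2 fold change of the ribosomal protein genes was below 0 in all 17 alternatives, but its size and the counts of calls moved, and the cause was not tested. In the main test 35 genes fell (44.9%, beside 27.1% of all tested genes) and 7 rose (8.97%, beside 23.4%). With no filter on low values 21 fell (26.9%, beside 10.1%). That last share is over 31815 genes, low ones included, and cannot be set beside the shares of the filtered settings. After median centring 20 fell (25.6%, beside 26.2%) and 5 rose (6.41%, beside 24.4%). After cyclic loess 19 fell (24.4%, beside 24.8%) and 14 rose (17.9%, beside 25.9%). With a constant prior variance 19 fell (24.4%, beside 25.2%) and 2 rose (2.56%, beside 22%). GC and length correction gave 16 that fell (20.5%, beside 26.5%) and 12 that rose (15.4%, beside 24.7%). After loess and after GC and length correction, the median was -0.0515 and -0.0169 for all 78 genes, -0.0515 and -0.0195 for large subunit genes, and -0.0518 and -8.81e-05 for small subunit genes, whose median was -0.0888 after quantile normalization. Of the 47 ribosome biogenesis genes, 3 rose with the no-filter setting (beside 8.74% of the 31815 genes of that setting). With the GC and length correction 9 of them rose (beside 24.7%). With 1 library left out at a time, there were 4707 to 5945 calls over all genes, 13 to 38 ribosomal protein genes that fell and 2 to 6 that rose, and medians of -0.182 to -0.0457 (small subunit) and -0.169 to -0.0960 (large subunit), the extremes of both without 2D replicate 2 and without 2D replicate 1. It gave 18 to 29 mitochondrial ribosomal protein genes that fell and 1 to 8 that rose, 7 to 14 biogenesis genes that fell and 3 to 5 that rose, and 2 to 4 translation factor genes that fell. The lowest of these counts came without a 3D library, apart from the biogenesis genes that rose. A lone remaining library was assumed to vary like the other culture.

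Replicate numbers did not pair the libraries (correlation of deviations -0.05 over 14116 genes). With a replicate block, 6248 genes were called. Of the ribosomal protein genes, 23 fell (29.5%, beside 23.7% of all tested genes) and 3 rose (3.85%, beside 20.6%).

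Of 731 values of the 43 named genes, 623 kept direction and side of the threshold and 12 changed sign. After GC and length correction these were Rpl39 (0.0499) and Rpl23a (0.0414). With 1 library left out, values ran from -0.0138 to 0.135 for Rpl10, from -0.00502 to 0.0888 for Gas5 and from -0.0184 to 0.0698 for Eef1a1, each with 1 value below 0, and from -0.0240 to 0.0175 for Fau. Fau also moved to 0.0100 after median centring, 0.0576 after quantile normalization, 0.0819 after loess, 0.0232 without mitochondrial and the 20 highest genes and 0.0501 after GC and length correction.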

Other observations

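Among the ribosomal protein genes, TPM differed widely in level for proteins present once in a ribosome. Of the 79 genes, 37 were listed at 1000 TPM or more and 74 at 100 TPM or more, and 5 at less. These were Rpl3l, Rpl7l1, Rps15a, Rpl29 and Rpl34, and copies held 82.2 and 93.5% of the summed TPM of the last pair. Spearman's rho of the fold change with mean TPM over the 78 tested genes was 0.04. Rows named as ribosomal protein pseudogenes, 192 in the table, summed to 4824 and 4590 TPM in 2D and 3741 and 3915 TPM in 3D. Rps2-ps13 is named in this way, and its own drop, given above, was about as large as that of the sum. The median log2 fold change of the tested rows was -0.03, so the sum does not stand for these rows as a class. Of the 69 tested, 7 fell (10.1%) and 4 rose (5.80%), smaller shares than the 27.1% and 23.4% of all tested genes.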
